A study of Mus musculus with 4 samples.

Results

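Wide DNase I footprints are the subject here: stretches of at least 20 bp inside accessible chromatin over which cutting was depleted. DNase I cuts open chromatin, and a bound protein shields the bases it covers, so a footprint list gives the position and width of protected stretches. The cells assayed by DNase-seq were naive, resting CD8-positive alpha-beta T cells, cytotoxic-lineage cells that have not met antigen. They were taken from female B6CASTF1/J mice of 2 months, F1 hybrids of an inbred laboratory strain with a wild-derived one. All 4 libraries belong to 1 group, labelled biological replicates 1 to 4. All carry the same donor identifier in the labels, and separate animals are not stated, so every p-value here speaks for the spread among these 4 libraries, which may be technical.

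The members were selected on measured values, the footprint widths: footprints of 20 bp or more on chromosomes 1 to 19 were merged across libraries by 1 bp of overlap, and regions wide in at least 2 of the 4 libraries were kept. This gave 28670 members out of 257964 footprint regions of any width. They were set against 43886 regions of 6 to 12 bp found in at least 2 libraries and overlapping no wide footprint. These are called narrow footprints below, and the shortest in the files was 7 bp.

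The libraries held 166816, 145656, 134569 and 25678 footprints in replicates 1 to 4, at an implied depth of 109, 62.9, 91.5 and 24.3 M tags. The promoters of the T cell markers Cd3d, Cd3e, Cd8a and Cd8b1 carried peaks for 4, 4, 3 and 2 of 4 genes in replicates 1 to 4. Of the B cell markers, the Pax5 promoter carried a peak in all 4 libraries and that of Cd79a in replicates 3 and 4. The promoters of the myeloid markers Csf1r and Lyz2 carried peaks for 1, 1, 1 and 0 of 2 genes. The missing T cell peaks were Cd8a in the libraries labelled replicates 3 and 4, and Cd3e in replicate 4. The part of these marker differences in the results below was not tested, and the main differences are also given from replicates 1 and 2 alone where they could be computed.

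A footprint can be wide because a protein contacts a long stretch or because neighbouring proteins bind side by side. CTCF, an architectural factor with many zinc fingers that anchors chromatin loops, contacts an unusually long stretch. NRF1, BANP, CREB/ATF, ZNF143 and SP proteins act mainly at CpG-rich promoters, BANP on a core with CpG pairs and SP proteins on GC boxes. ETS, RUNX, TCF7/LEF1 and AP-1 proteins, the classical regulators of T cell enhancers, bind short sites.

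The sequences below show where a site lay within some of the widest members. They are reference-strain sequences (GRCm38/mm10, from RefSeq) and do not show the wild-derived allele. For each of the 6 families most frequent in members relative to narrow footprints, the 2 widest matched members that were wide in the most libraries are printed with 5 bp on each side. Capitals mark the match to the family's consensus on either strand.
CTCF, chr1:82839346-82839406, + strand, 104 bp upstream of Agfg1: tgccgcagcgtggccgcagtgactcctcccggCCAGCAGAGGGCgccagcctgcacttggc
CTCF, chr1:86501753-86501809, + strand, intergenic: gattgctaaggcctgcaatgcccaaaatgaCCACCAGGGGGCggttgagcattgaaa
NRF1, chr1:182409011-182409067, + strand, 130 bp upstream of Trp53bp2: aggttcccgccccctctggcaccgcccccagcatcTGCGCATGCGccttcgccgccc
NRF1, chr15:31601771-31601826, + strand, 3 bp into Cct5: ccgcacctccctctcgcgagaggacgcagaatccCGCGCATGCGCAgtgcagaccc
BANP/ZBTB33, chr8:70042728-70042782, + strand, 23 bp upstream of Mau2: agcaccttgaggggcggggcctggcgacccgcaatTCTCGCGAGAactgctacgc
BANP/ZBTB33, chr8:13785875-13785927, + strand, 256 bp into Upf3a: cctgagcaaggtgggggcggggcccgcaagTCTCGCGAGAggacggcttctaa
CREB/ATF, chr6:131293206-131293266, + strand, 10 bp into Magohb: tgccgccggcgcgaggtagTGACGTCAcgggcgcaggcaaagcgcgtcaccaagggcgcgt
CREB/ATF, chr6:30304544-30304598, + strand, 31 bp upstream of Ube2h: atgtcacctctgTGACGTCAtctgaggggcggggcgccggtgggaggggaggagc
ZNF143, chr3:30602318-30602367, + strand, 279 bp into Mynn: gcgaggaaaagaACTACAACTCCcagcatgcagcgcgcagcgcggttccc
ZNF143, chr10:94035799-94035847, + strand, 5 bp upstream of Vezt: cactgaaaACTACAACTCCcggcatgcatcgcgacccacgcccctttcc
SP, chr1:160212847-160212916, - strand, 11 bp upstream of Cacybp: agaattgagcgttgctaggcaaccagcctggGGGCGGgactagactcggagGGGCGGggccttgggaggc
SP, chr1:160906308-160906373, - strand, 75 bp upstream of Rc3h1: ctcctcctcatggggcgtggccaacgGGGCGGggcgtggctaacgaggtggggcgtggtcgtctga

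Of the 12 members printed, 11 lay within 1 kb of an annotated start. All 12 were wide in 4 libraries and longer than the site in capitals, which follows from how they were chosen.

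Footprints of 20 bp or more made up 19.8, 25.5, 16.2 and 6.27% of all footprints in replicates 1 to 4. Replicate 4, the shallowest library, had the smallest share, and replicate 2, which was shallower than replicates 1 and 3, the largest. Members had a median width of 28 bp over the libraries in which they were wide, with an upper quartile of 32.5 bp, and the widest averaged 80 bp. The limit cuts a continuum: in replicate 1, 2716 footprints were 20 bp and 3071 were 19 bp. Regions with a footprint of exactly 20 bp held an exact CTCF core in 3.81%, lay within 1 kb of a start in 68.1% and had a GC content of 64.8%. Those of exactly 19 bp had 2.95, 67.2 and 64.1% for the same measures.

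**Figure D1:**
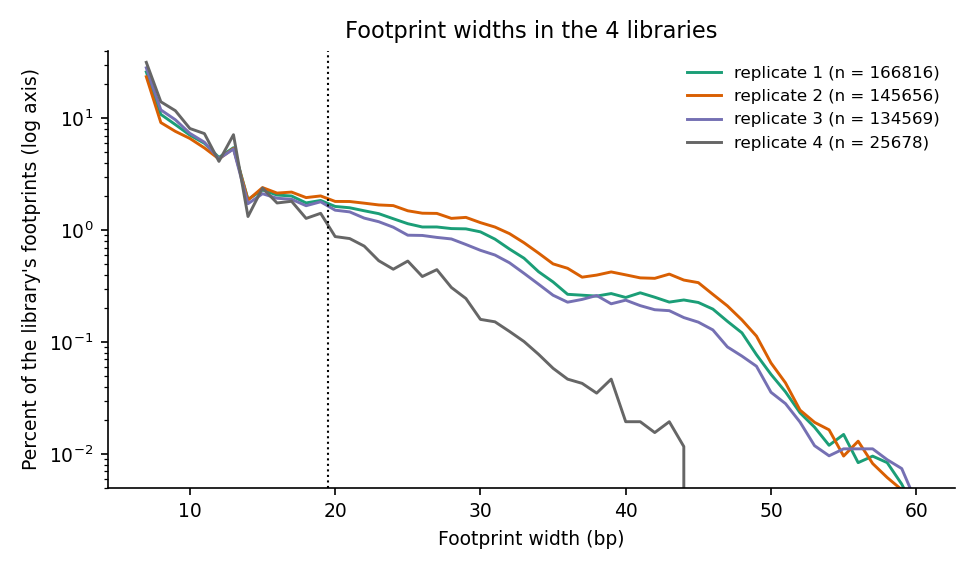
Width in bp of all autosomal footprints of the 4 libraries (lines) as a percent of each library's footprints, on a log axis that ends before the widest; the dotted line marks the limit of 20 bp. The curves of replicates 1 to 3 carry a second shoulder near 40 to 45 bp, and replicate 4 falls away faster.

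Of 46073 regions wide in any library, 62.2% were wide in at least 2, while 21.1% of 236149 narrow regions were found in at least 2. Both classes were cut by width, so these shares carry no test, and the cause of their difference was not tested. Of the members, 15389 were wide in replicates 1, 2 and 3, 9071 in replicates 1 and 2 only, and 1479 in all 4. Members not wide in replicate 3 usually had a footprint of another width there (26.3% of all members), whereas in replicate 4 a footprint of another width (31.6%), a peak with no footprint (29.3%) and no peak at all (33.6%) were about as frequent.

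Since width chose the members, it was tested in the library left out of the choice. Regions wide in at least 2 of the other 3 libraries were wide in the fourth in 91.7, 92.4, 64.2 and 5.23% of cases with replicates 1 to 4 held out. Regions narrow in at least 2 of the others and overlapping none of their wide footprints were wide there in 6.71, 10.5, 2.10 and 0.0578%. The part of leaving out the overlapping ones in the difference was not tested. The difference averaged 58.5 ± 37.0 percentage points (SD, n = 4 libraries) and was positive in all 4, at an exact two-sided sign-flip permutation p of 0.13. That is the smallest p that 4 libraries allow, so no value in this text could pass 0.05, and the libraries are not independent tests because they share a genome. Replicate 4 was lowest, and 22.3% of the regions wide elsewhere had a footprint of any width there.

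Width rose with the height of the peak around a footprint. That height is given here in implied tags, the height over its smallest step in the library. In replicate 1 the share of footprints that were wide was 0.585% in peaks of fewer than 50 tags and 41.9% in peaks of 800 or more, and in replicate 2 it was 0.372% and 49.7%. In the left-out library, members' peaks were also higher, with a median height of 1.37, 1.398, 1.14 and 1.66 times the library's median height over sites with a peak in all 4 libraries (relative height) in replicates 1 to 4, against 0.864, 0.818, 0.745 and 1.29 at narrow footprints. Height and footprint call come from the same reads in each library, so the part of tag number in each result below was not tested beyond the values within 4 equal classes of peak height.

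In the libraries that chose them, members lay in peaks of median relative height 1.15, 1.19, 1.38 and 2.48 in replicates 1 to 4, against 0.613, 0.554, 0.759 and 1.63 for narrow footprints. The difference in log2 median height was 0.87 ± 0.20 (SD, n = 4), higher in 4 of 4 libraries, and 1.09 from replicates 1 and 2 alone. It was 0.25 against footprints of 13 to 19 bp, 1.34 against narrow footprints of at least 1 library, and 1.65 for members wide in all 4 libraries. The last value is an unlike comparison. Its members had to be called in all 4 libraries, replicate 4 included, and its narrow footprints in at least 2. A peak of the library covered 94.3 ± 1.18% of members and 85.5 ± 3.29% of narrow footprints. Members also came in groups. Of 26842 members inside a peak of replicate 1, 14706 were alone in their peak, 5066 peaks held 2 or more, and 7 was the most in 1 peak.

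The share of members within 1 kb of an annotated start was close to that of narrow footprints. It was 56.0, 56.0, 60.3 and 77.6% in replicates 1 to 4, against 56.1, 53.0, 62.9 and 86.2%. The difference of -2.07 ± 4.89 percentage points (SD, n = 4) had no common sign over the libraries (exact sign-flip permutation p = 0.625). Within each of the 4 classes of peak height, however, members were farther from starts in all 4 libraries. In the lowest class 17.2% of members and 41.8% of narrow footprints lay within 1 kb, and in the highest class 90.4% and 93.4%. Wide footprints in low peaks thus lay mostly away from starts. From replicates 1 and 2 alone the pooled difference was 4.58 percentage points, the opposite sign.

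Where members lay near a start, they sat on its upstream side. Counted to the nearest protein-coding start within 1 kb, 75.9, 76.4, 76.8 and 83.4% of members were upstream in replicates 1 to 4, against 58.2, 61.2, 57.7 and 63.2% of narrow footprints. The difference was 18.1 ± 2.15 percentage points (SD, n = 4; 4 of 4 libraries higher; exact sign-flip permutation p = 0.13). The median member lay 43 bp upstream of the start and the median narrow footprint 18 bp upstream. The first 100 bp upstream held 50.4 ± 4.83% of these members and 33.3 ± 5.39% of these narrow footprints. Members with a CREB/ATF site were centred at a median of 30 bp upstream, those with NRF1 at 29.5 bp, those with SP at 46 bp, and those with a CCAAT box of NFY at 54 bp.

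The bases around the centres of members were richer in G and C. In a fixed window of 31 bp around the centre, GC content was 65.0, 65.0, 66.1 and 69.4% in members of replicates 1 to 4, against 58.7, 58.1, 60.2 and 64.4% in narrow footprints. The difference was 6.04 ± 0.78 percentage points (SD, n = 4; 4 of 4 libraries higher; exact sign-flip permutation p = 0.13), and 7.46 from replicates 1 and 2 alone. It was positive both within 1 kb of a start (5.28 ± 0.30) and farther away (8.22 ± 0.97). The window is mostly footprint in members, of median width 28 bp, and mostly flank in narrow footprints, of median width 8.5 bp. CpG dinucleotides were at 8.06 ± 1.51 per 100 bp in members and 6.68 ± 1.70 in narrow footprints. That sign held in the upper 2 classes of peak height and turned in the lower 2. In the lowest class CpG was at 3.29 per 100 bp in members and 4.92 in narrow footprints. The longest single-base run averaged 3.8 bp in members and 3.53 bp in narrow footprints. The share of repeat-masked bases had no common sign over the libraries, at 8.14 ± 3.19% in members and 8.19 ± 2.72% in narrow footprints.

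**Figure D2:**
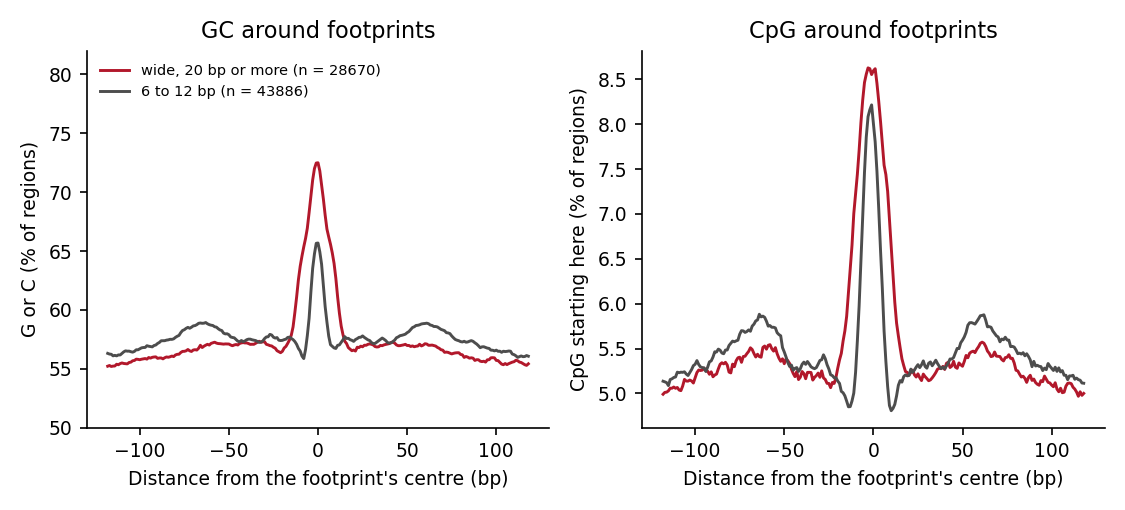
Percent of regions with G or C (left) and with a CpG (right) at each distance in bp from the footprint's centre, averaged over 5 bases, for the 28670 members and the 43886 narrow footprints. Both profiles rise at the centre, higher and over a broader stretch in members, with GC near 72.7% in members and 66.5% in narrow footprints at the centre itself.

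Motif families were counted as exact consensus matches on either strand of the 31-bp window, for 40 families. No family was found in 44.8% of members and 60.3% of narrow footprints. In all 4 libraries 11 of 40 families (27.5%) were more frequent in members and 15 of 40 (37.5%) less frequent. The sign-flip p of each such family was 0.13 and its Benjamini-Hochberg adjusted p over the 40 families 0.192.

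CTCF stood first. Its core, a 12-base consensus, was in 12.6, 12.5, 13 and 10.7% of members in replicates 1 to 4, against 0.346, 0.389, 0.218 and 0.0469% of narrow footprints. The difference was 11.96 ± 0.91 percentage points (SD, n = 4), and 12.6 from replicates 1 and 2 alone. Windows 100 bp from members held it in 0.0750%. Of all footprints with the core in their window, 79.5, 77.9, 68.9 and 27.4% were wide in replicates 1 to 4. Replicate 4 had 603 footprints with the core, of median width 13 bp. A core narrow in replicate 4 but wide in another library was not counted as narrow. The part of this rule in the difference was not tested. CTCF members differed from the others in place: 14.8% lay within 1 kb of a start, and their peaks had a median relative height of 0.574 in replicate 1, below the 1.15 of all members.

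The promoter families followed. NRF1 was in 1.58 ± 0.66% of members and 0.141 ± 0.12% of narrow footprints (SD, n = 4). The palindrome CTCGCGAGA of BANP/ZBTB33 was in 0.615 ± 0.48% and 0.0714 ± 0.046%. The CREB/ATF site TGACGTNA was in 2.56 ± 1.43% and 0.450 ± 0.19%. ZNF143, an 11-base consensus, was in 0.226 ± 0.051% and 0.0725 ± 0.019%. These 4 were more frequent in members in every library, and 92.3, 98.1, 87.6 and 97.3% of the matched members lay within 1 kb of a start. Their peaks in replicate 1 had median relative heights of 1.92, 2.33, 1.85 and 1.80. NRF1 was in 1.18% of all members and 1.22% of all regions of 13 to 19 bp found in at least 2 libraries. The differences over libraries used only those of these regions that overlapped no wide footprint. Against them the mean NRF1 difference was 0.263 ± 0.207 percentage points (exact sign-flip permutation p = 0.25). That of BANP/ZBTB33 was 0.179 ± 0.172 (exact sign-flip permutation p = 0.25).

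GC boxes (GGGCGG, bound by SP proteins) were the most frequent match. They were in 18.9, 19.2, 20.8 and 24.6% of members in replicates 1 to 4, against 7.99, 7.74, 8.97 and 10.9% of narrow footprints, while windows 100 bp from members held them in 6.92%. From replicates 1 and 2 alone the difference was 11.8 percentage points. Of all members 19.2% held a box, and of all regions of 13 to 19 bp in at least 2 libraries 18.4%. Against those of these regions that overlapped no wide footprint, the mean difference over libraries was 4.54 ± 5.30 percentage points (SD, n = 4). At least 2 boxes were in 3.00% of members and 0.772% of narrow footprints. The difference turned round in the lowest class of peak height, where 2.81% of members and 6.13% of narrow footprints held a box. EGR (GCGNGGGCG) was in 2.11 ± 0.58% and 0.857 ± 0.17%, but 72.2% of the matched members also held a GC box, whose letters overlap it. REST (TTCAGCACC), a repressor of neuronal genes, was in 0.0942% of members and 0.0410% of narrow footprints, higher in 3 of 4 libraries.

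No family of T cell enhancers named here was more frequent in members in all 4 libraries. The ETS site CGGAAG was in 4.15 ± 0.99% of members and 4.69 ± 2.01% of narrow footprints, with no common sign over the libraries. The RUNX site TGTGGT was in 2.16 ± 0.58% and 2.30 ± 0.97%, also with no common sign. The TCF7/LEF1 site CTTTGA was in 0.772 ± 0.061% and 1.36 ± 0.44%, lower in 4 of 4 libraries. AP-1 (TGANTCA) was in 0.149 ± 0.057% and 0.486 ± 0.20%. Among families with at least 20 matched members, the lowest ratios were at the ETS form without CpG, spelled CAGGAAG, at the AGATAA site of GATA factors and at the site GAGGAAGT of PU.1, with 0.485, 0.119 and 0.0752% of members against 1.92, 0.460 and 0.424% of narrow footprints. KLF sites (GGGTGTGG or GGGTGGG) were in 2.31 ± 0.36% and 2.27 ± 0.37%. The window is fixed at 31 bp in both classes, so a site off the centre of a wide member can be missed. Over the footprint itself plus 5 bp, which is longer in members, 33 of 40 families were more frequent in members in all 4 libraries and 0 less frequent, AP-1, GATA and TCF7/LEF1 among those whose difference turned.

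**Figure D3:**
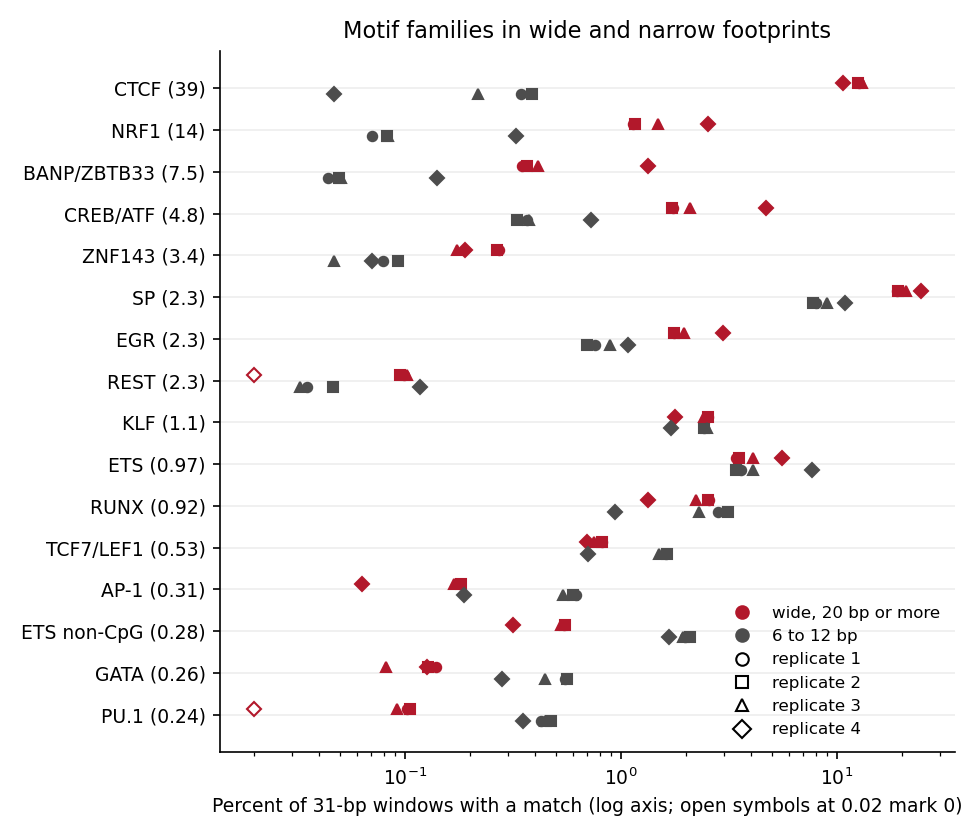
Percent of 31-bp windows with a match (log axis) for the 16 named families in members (red) and narrow footprints (grey), 1 symbol per library; the ratio of the pooled shares is in brackets. CTCF stands farthest to the right of its narrow value, the promoter families follow, and AP-1, GATA, PU.1 and the ETS form without CpG lie to the left. Open symbols mark a share of 0.

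Some other families met the CTCF core. Of members with the E protein site CAGNTG, 74.0% had a CTCF core within 2 mismatches, whose letters can spell that site. Over windows with no such core, the site was in 3.72% of members and 6.12% of narrow footprints, the opposite order from the 8.42% and 6.55% over all windows. For YY1 (AAGATGGCG or CAAGATGG) that share was 71.6%, for RUNX 58.5% and for AP-1 50%. Over windows with no such core, RUNX was in 1.76% of members and 2.69% of narrow footprints, lower in 3 of 4 libraries. KLF (GGGTGTGG or GGGTGGG) was there in 4.04% and 2.47%, higher in 4 of 4 libraries. NRF1, BANP/ZBTB33 and ZNF143 met it in 1.48, 0.971 and 1.35% of matched members, and over windows without it their shares were 1.97, 0.604 and 0.432% in members and 0.0911, 0.0503 and 0.0767% in narrow footprints.

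The exact core undercounts CTCF, so the core was also counted with up to 2 mismatches, an alternative chosen after seeing the data. Farther than 1 kb from any start, 74.7, 74.3, 78.5 and 75.4% of members in replicates 1 to 4 held it, against 6.88, 7.25, 5.15 and 2.04% of narrow footprints. The difference was 70.4 ± 3.41 percentage points (SD, n = 4; 4 of 4 libraries higher; exact sign-flip permutation p = 0.13), and 67.6 from replicates 1 and 2 alone. Windows 100 bp from distal members held it in 1.95%. Here too, narrow footprints that overlapped a wide footprint had been left out. Near starts the shares were 18.6 ± 3.02% in members and 3.57 ± 0.38% in narrow footprints. Of all members, 41.1% held it, and 21.2% held neither such a core nor any of the 40 families or 4 patterns added later, 27.1% near starts and 13.4% elsewhere.

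The share of CTCF changed with width. With up to 2 mismatches it was 20.7% at mean widths of 20 to 25 bp, 45.7% at 25 to 30 bp, 53.4% at 30 to 35 bp, 45.8% at 35 to 40 bp and 58.3% at 40 to 50 bp. Among the 135 members of 50 bp or more it was 8.89%. GC boxes ran the other way at the narrow end, in 27.5% of members of 20 to 25 bp and 15.5% of those of 40 to 50 bp. These classes were cut by width and carry no test.

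The edges of wide footprints were measured from the CTCF core, read along its strand. The downstream edge lay at a median of 11, 11, 10 and 8 bp past the core in replicates 1 to 4 and was spread, with quartiles of 8 and 13 bp in replicate 1. In replicates 1 to 3 the upstream edge had a main mode near 5 bp and a second one at 21 to 23 bp. An upstream edge of at least 15 bp is called long here and one of 0 to 10 bp short. Long edges were 13.9, 22.3, 12.2 and 2.38% of the wide CTCF footprints, or 477, 763, 311 and 4 footprints. With the long edge the footprint had a median width of 43, 43 and 42 bp in replicates 1 to 3, against 28, 29 and 27 bp with the short edge, which places it in the shoulder of the width curves.

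**Figure D4:**
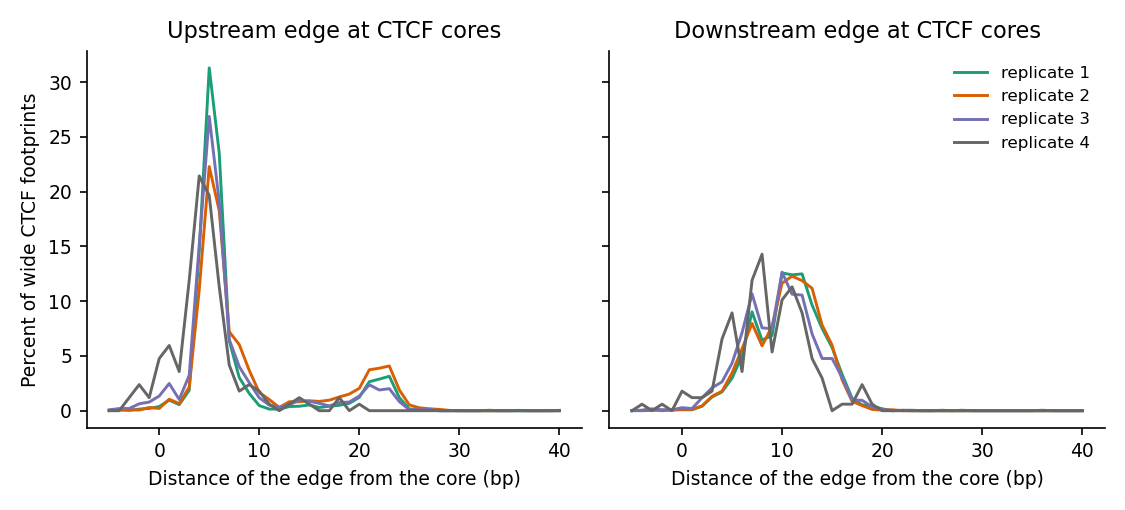
Distance in bp of the upstream (left) and downstream (right) edge of wide footprints from the CTCF core, as a percent of the wide CTCF footprints of each library. The upstream edge has a main mode near 5 bp and a second one just past 20 bp in replicates 1 to 3; the downstream edge spreads over about 5 to 16 bp.

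The 2 sites printed next show both forms, with capitals at the core and at the hexamer TGCAGT. Each has the highest replicate 1 peak among single-copy CTCF members with its edge class in replicates 1 to 3, the long one among sites with the hexamer and the short one among sites without it. They were chosen after seeing the data.
Long edge, chr11:103327125-103327184, - strand, intergenic, 6239 bp downstream of the nearest start, of Arhgap27: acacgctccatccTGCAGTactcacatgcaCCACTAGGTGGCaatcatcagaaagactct
Short edge, chr11:103102785-103102844, + strand, 199 bp upstream of Acbd4: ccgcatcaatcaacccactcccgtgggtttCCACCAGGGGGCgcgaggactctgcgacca
In the first, the upstream edge lay 23, 24 and 23 bp before the core in replicates 1 to 3, beyond the hexamer. In the second it lay 5, 5, 5 and 4 bp before the core in replicates 1 to 4.

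The hexamer TGCAGT, known from studies of CTCF as part of an upstream motif read by further zinc fingers, accompanied the long edge. It began 14 to 20 bases upstream of the core in 18.2, 14.2 and 19.6% of long-edge footprints of replicates 1 to 3, against 2.17, 1.57 and 2.31% of short-edge ones. The difference was 15.3 ± 2.45 percentage points (SD, n = 3; 3 of 3 libraries higher), at an exact sign-flip permutation p of 0.25, the smallest that 3 libraries allow. Replicate 4 had 1 such footprint among its 4 long ones and 5 among 149 short ones. At the same distance on the other side of the core the hexamer was in 0.210, 0.131 and 0% of long-edge footprints. Seen from the sequence, 58.0, 73.0 and 55.5% of sites with the hexamer had the long edge, against 12.1, 20.7 and 10.8% of sites without it. Most long edges therefore lacked this exact hexamer. The edge class recurred: of sites long in replicate 1 and classed in replicate 2, 90.8% were long there, against 11.4% of sites short in replicate 1. In the other direction, of sites long in replicate 2 and classed in replicate 1, 57.5% were long there, against 1.73% of sites short in replicate 2. Of sites long and short in replicate 1, 59.5% and 3.38% were long in replicate 3. Long-edge sites lay in higher peaks, at median relative heights of 0.805, 0.819 and 0.811 in replicates 1 to 3, against 0.549, 0.586 and 0.601 at short-edge sites. In replicate 4 they were at 1.67 and 1.79. The part of tag number in the edge was not tested.

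Members also marked tRNA genes. These short genes are transcribed by RNA polymerase III from 2 internal control boxes; TFIIIC binds the B box and places TFIIIB just upstream of the gene. Of 386 tRNA genes in RefSeq on the autosomes, 131 had a member centred inside and 128 had one centred 10 to 60 bp upstream. In all, 92 genes had both and 167 (43.3%) had either. Members centred inside made up 0.437, 0.460, 0.584 and 0.253% of members in replicates 1 to 4, against 0.0586, 0.0831, 0.0691 and 0.0704% of narrow footprints. The difference was 0.363 ± 0.136 percentage points (SD, n = 4; 4 of 4 libraries higher; exact sign-flip permutation p = 0.13), and 0.336 from replicates 1 and 2 alone. Replicate 4 contributed 4 members. Of all footprints centred in tRNA genes, whatever their width, 47.9, 52.7, 44.1 and 4.30% were wide in replicates 1 to 4. Those that were narrow but overlapped a wide footprint of any library are not among the narrow footprints. The question was put after seeing the data.

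The positions inside and upstream were narrow. The centre of the inside member lay at base 59 of the gene at the median, with quartiles of 56 and 62, in genes of median length 73 bp. The B box letters GGTTCGA began at base 52 at the median, and 100 of the 101 members in genes with these letters covered all of them. Upstream, 70 members were centred 21 to 30 bp and 45 were centred 31 to 40 bp before the gene, against 3 and 4 narrow footprints. The latter counts leave out narrow footprints that overlapped a wide footprint. The inside members had a median width of 32.7 bp and the upstream ones 38.7 bp. Other small RNA genes differed in their counts: gene bodies with 60 bp upstream held 264 members and 70 narrow footprints at tRNA genes, but 35 members and 51 narrow footprints at 3407 snoRNA, miRNA, snRNA, rRNA and other small RNA genes.

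A single gene of the serine family (n-TStga3) shows the arrangement. It was chosen after seeing the data, as the gene with B box letters whose pair of members, each with 1 genomic copy, was wide in the most libraries and whose inside member was widest. Capitals mark the B box letters.
tRNA-Ser, chr10:63429476-63429557, - strand: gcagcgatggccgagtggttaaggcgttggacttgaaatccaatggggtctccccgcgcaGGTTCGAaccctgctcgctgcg
The inside member covered bases 44 to 84 counted from the first base of the 82-base gene and was wide in replicates 1 to 3, at 39, 40 and 39 bp. The upstream member lay 9 to 52 bp before the gene and was wide in all 4 libraries, at 42, 43, 42 and 30 bp.

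**Figure D5:**
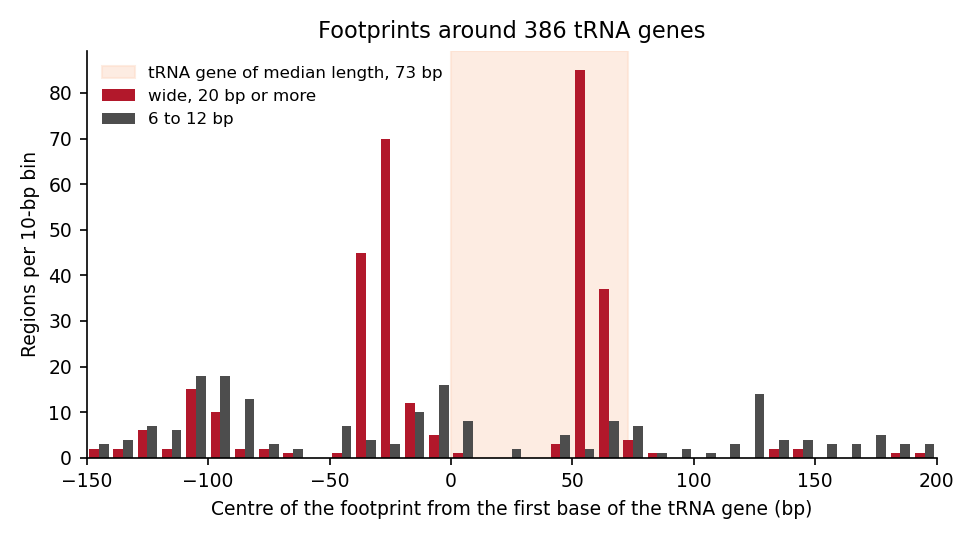
Number of members (red) and narrow footprints (grey) per 10-bp bin by the distance in bp of their centre from the first base of 386 tRNA genes, with the shaded band at the median gene length of 73 bp. Members stand in 2 clusters, about 30 bp upstream and at bases 50 to 70. Narrow footprints show neither, but those that overlapped a wide footprint were left out by definition.

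A member was centred inside 33.9% of all 386 tRNA genes, and the share varied between clusters of these genes. The tRNA genes at chr13:23270421-23530419, beside clustered histone genes, had a member in 18 of 45. Those at chr11:69037003-69125248 had one in 11 of 18, and those at chr11:48818542-48857055 in 8 of 8. Among other clusters it was 11 of 34 at chr13:21710580-22050767, 7 of 25 at chr1:171033942-171111515 and 5 of 25 at chr13:21160785-21492926. The densest 100 kb of members in the genome, with 48, was chr11:69036070-69136069, which holds 11 of these tRNA members beside Ctc1, Aurkb, Borcs6, Tmem107, Vamp2, Per1, Hes7 and Aloxe3. Second came chr13:23431383-23531382 with 35 members, 18 of them in tRNA genes, followed by chr10:81285876-81385875 with 34, of which 26 lay near starts.

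Of 20752 protein-coding genes of up to 1 Mb, 69.1% had at least 1 member in the gene body or within 25 kb, with a median of 2 members and 3 narrow footprints. Gene windows overlap, so neighbouring genes share members, and counts grow with gene length and gene density. The 15 genes with the most members fell into a few neighbourhoods. Gm44511, in the Klrb1 receptor cluster on chromosome 6, had 30 members, 8 of them with a central sequence present more than once in the genome. Camta1, a calmodulin-binding transcription activator whose gene spans 945 kb, had 28. Gm10717, Gm10718, Gm10719, Gm10720, Gm10721 and Gm11168, side by side at the start of chromosome 9, each had 27 in overlapping windows, of which 26 had multiple copies, and Gm10722 had 25. Per1, a core component of the circadian clock, had 27. Its neighbours Aurkb, a mitotic kinase, and Borcs6 had 26 each, and Tmem107 had 24. Ccdc106 and Samd4b on chromosome 7 had 24 each, with 11 of those at Samd4b holding a CTCF core within 2 mismatches.

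Multi-copy sequence was a small part of the whole. The central 31 bp occurred more than once in the autosomes for 2.23% of members and 2.20% of narrow footprints. In all, 94 members shared this sequence with another member, the largest group holding 19, so those are not separate observations.

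The gene lists give the counts at T cell loci, to be read against the 69.1% of all protein-coding genes with a member. Of the T cell identity genes 23 of 25 had a member, with a median of 4, among them the kinases Lck with 8 and Zap70 with 7. Cd3d and Cd3g, neighbours with overlapping windows, had 6 each, as did Cd247, Ikzf1 and Skap1. Of the CD8 lineage genes 9 of 9 had one, led by Patz1 with 6, Cbfb with 5, and Cd8b1 and Runx3 with 4 each. Of the naive and quiescent genes 22 of 24 had one, led by the repressor Bach2 with 13, Txnip and Socs3 with 8 each and the homing receptor Ccr7 with 7. Of the activation and effector genes 22 of 30 had one, led by the AP-1 genes Junb with 19, Fosb with 13 and Jund with 11, and by Nr4a1 with 12.

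Lists of other kinds had members as well. Among housekeeping genes 19 of 19 had one, among them Eef2 with 14, Atp5b with 10 and Actb with 8. Among architectural and chromatin genes 17 of 17 had one, led by Smarca4 with 11, Hdac1 and Chd4 with 9 each and Rest with 8. Of the B cell genes 13 of 15 had one, among them Cd79a with 9, Spib with 8 and Pax5 with 4. Of the myeloid genes 12 of 16 had one, with 8 each at Cebpb and Cd68 and 7 each at Fcgr3 and Cd14. Of the interferon response genes 12 of 16 had one, among them Bst2 with 9, and Stat2 and Irf9 had 5 each. Of the clustered histone genes 10 of 10 had one, led by Hist1h4h with 16 and Hist1h1c with 10, and Hist2h2be and Hist4h4 had 5 each.

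Relative to narrow footprints, the T cell lists held fewer members than all genes in replicates 1 to 3. Per 100 narrow footprints, the T cell identity windows held 49.4, 50.6, 38.6 and 38.5 members in replicates 1 to 4, against 86.2, 99.04, 76.3 and 37.2 over all protein-coding genes. The naive and quiescent list held 52.4, 59.4, 45.6 and 31.8. The CD8 lineage list held 57.7, 57.7, 43.6 and 60, and the activation and effector list 63.9, 71.4, 67.7 and 42.9. In replicate 4 both of these lists and the T cell identity list were above all genes. The housekeeping list held 88.3, 102, 63.1 and 37.5, the myeloid list 131, 123, 108 and 46.2, and the clustered histone list 59.6, 65.3, 54.4 and 30. The clustered histone list was thus also below all genes in replicates 1 to 3. No test was made of these counts, since genes are not replicates.

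For regions near list genes, the rule took up to 3 members per list, wide in at least 3 libraries and widest by mean width, 30 in all. A CTCF core within 2 mismatches was in 15 of them, and in 10 of the 14 that lay farther than 1 kb from a start. Among all members these shares were 41.1% and, farther than 1 kb from a start, 73.6%. The named regions at Fcgr3 and at Hist1h4h lay at tRNA genes. A region with such a core lay 7780 bp upstream of Cd2, at chr3:101295694-101295743, with widths of 48, 50 and 46 bp in replicates 1 to 3. One lay 10403 bp upstream of Txnip, at chr3:96547531-96547577, with widths of 46, 47 and 46 bp. One lay 13411 bp upstream of Nr4a1, at chr15:101240834-101240881, with widths of 47, 48 and 47 bp. Near Cd8b1 the widest was an intronic site with the exact core at chr6:71298926-71298969, closest to the start of Krcc1, with widths of 27, 42 and 27 bp. Replicate 4 had no wide footprint at these 4 sites.

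The other 16 of these regions lay within 1 kb of a start, and 4 members near starts follow as examples. A member 181 bp upstream of Klf2, a transcription factor of T cell quiescence, held a GC box and was 53, 57, 50 and 21 bp wide in replicates 1 to 4. A member 130 bp upstream of Cbfb, the partner of RUNX proteins, held an NRF1 site and was 33, 32 and 32 bp wide in replicates 1 to 3. A member 14 bp upstream of Banp held a GC box and was 42, 41 and 42 bp wide. The widest at the Cd3 genes lay 4 bp into Ube4a, at chr9:44965565-44965627, and was 61, 62 and 62 bp wide.

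The 10 widest members among those wide in all 4 libraries averaged 52 to 62 bp. None held a CTCF core within 2 mismatches, 2 lay at tRNA genes, 5 lay near starts, and 7 matched no family. They included promoter sites 9 bp upstream of Wwox with 49, 69, 61 and 39 bp in replicates 1 to 4, 42 bp upstream of Rbm27 with 59, 61, 59 and 42 bp, and 59 bp upstream of Ccdc66 with 52, 63, 54 and 39 bp. Those at Rbm27 and Ccdc66 held a CCAAT box of NFY. At Polg, 35 bp upstream of the start and beside a tRNA gene, the widths were 59, 61, 59 and 34 bp. The widest of all in the mean, near Peak1, had 73, 67, 73 and 35 bp. A site at chr1:102628225-102628281, far from any protein-coding start, had 57, 57, 57 and 50 bp.

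The 10 members wide in all 4 libraries with the highest peaks had mean relative peak heights of 6.87 to 16.7. The top 2 members were neighbours in 1 peak, at chr6:49236405-49236460 and chr6:49236502-49236550, 21475 and 21569 bp upstream of Igf2bp3, with a peak height of 15.9, 13.3, 19.1 and 18.6 in replicates 1 to 4. Pairs near Kpna1 and at Dynlt1b, a dynein light chain gene, likewise had the same peak heights within the pair, so the 10 members do not stand for 10 peaks. Of the 10, 6 had a central sequence present more than once in the genome and 8 matched no family.

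The 3 widest members of all were wide in replicates 1 to 3 only and are printed with 5 bp on each side, since they show how different the extremes are.
chr9:3024086-3024193, + strand: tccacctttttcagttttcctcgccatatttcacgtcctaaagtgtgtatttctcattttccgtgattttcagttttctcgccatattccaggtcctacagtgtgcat
chr6:47757982-47758070, + strand: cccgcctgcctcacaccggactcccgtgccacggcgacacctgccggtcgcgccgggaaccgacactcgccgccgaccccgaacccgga
chr8:107293353-107293453, + strand: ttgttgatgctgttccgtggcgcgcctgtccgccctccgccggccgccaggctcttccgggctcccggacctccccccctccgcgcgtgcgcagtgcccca
The first lay in the chromosome 9 block named above, was fully repeat-masked, had 76 exact genomic copies of its central 31 bp, and measured 98, 44 and 98 bp. The second was intergenic with 16 copies and measured 77, 77 and 79 bp. The third was single-copy, 68 bp upstream of Nfat5, a factor of the osmotic stress response, and measured 86, 51 and 89 bp. Of the 1479 members wide in all 4 libraries, 76.6% lay within 1 kb of a start, against 56.96% of all 28670. Each of the 1479 needed a wide call in replicate 4, where 77.6% of members and 86.2% of narrow footprints lay within 1 kb. The part of this requirement in the difference was not tested.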

How the data were processed

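DNase-seq footprints and peaks of 4 libraries were analysed on mm10, the build per the labels. Per the text deposited with each library, the authors called footprints and peaks on each library separately. Names of the aligner and callers were not given in the sources used here, nor were their settings. The footprint lists hold 1 deposited p-value column with the constant 0.01, read as the false discovery rate threshold. The peak height is a signal that the authors scaled to library depth. Its smallest step gave the implied depth of each library, and relative height is the height over the library's median at sites with a peak in all 4 libraries.

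Footprints on chromosomes 1 to 19 were used. Sequence came from RefSeq GRCm38.p6, the same assembly as mm10, transcript starts and gene models from GENCODE release 21, and tRNA genes from RefSeq. Motifs were exact matches on both strands of a 31-bp window around the centre. Each measure was computed per library, over members wide in it and narrow footprints present in it, and its differences were tested by an exact two-sided sign-flip permutation over libraries. The scripts, checked on simulated data, ran in Python 3.11.15 with numpy 2.4.6, pandas 2.3.3 and matplotlib 3.10.9.

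Members and lists were chosen with earlier results of these data known. The named regions were the 10 widest and the 10 with the highest peaks among members wide in all 4 libraries, and up to 3 per gene list by width. Named genes were the 15 with the most members and up to 4 per list. Some genes that this rule names are not reported here. Named families were the 8 highest and 3 lowest ratios among those with at least 20 matched members, and CTCF, ETS, RUNX, TCF7/LEF1, SP, KLF, NRF1 and AP-1; the E protein, YY1 and NFY families were named after their values were seen. CTCF edges and mismatches, tRNA genes, windows without CTCF and 4 further patterns were also added after seeing the data. Alternatives changed the width limit, libraries needed, libraries used, narrow class, window, place and peak height.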

Additional observations from a re-analysis of the deposited data

Results flagged for a closer look

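Replicate 4, the shallowest library with 1579 members, lay far from the other 3 in 8 of the 30 values of members minus narrow footprints that were examined. Such a gap arises by chance in about 1 in 20 groups of 4. The longest single-base run differed by 0.446 bp there, against 0.203 to 0.223 in the others. The share inside a peak differed by 5.67 percentage points, against 9.66 to 10.2. The BANP/ZBTB33 share differed by 1.19 percentage points, against 0.305 to 0.364. The CREB/ATF share differed by 3.96, against 1.37 to 1.70, and the EGR share by 1.90, against 1.00 to 1.07. The REST difference was -0.117, against 0.0484 to 0.0697, with no REST match among the replicate 4 members. The ETS difference was -2.10, against -0.170 to 0.116. The TCF7/LEF1 difference was -0.00709, against -0.808 to -0.751. The part of depth in these gaps was not tested.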

How the results depend on the processing

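No paired analysis was possible between groups because all libraries belong to 1 group and no groups share replicate numbers. Each difference between members and narrow footprints was taken within a library. The number of members was 17964 at a limit of 25 bp, 46073 in at least 1 library, 16941 in at least 3, 1479 in all 4, and 18200 to 28644 with 1 replicate left out. Where members were required in at least 3 or all 4 libraries, the narrow footprints were still those of at least 2. Genes with a member fell to 13.8% with members wide in all 4 libraries. Families higher in every library numbered 18 from replicates 1 and 2 only and 33 over the footprint and 5 bp, where 0 were lower; that window is longer in members by construction. The difference in the share near starts turned to 0.222 at 18 bp, 12.1 in all 4 libraries, 4.58 from replicates 1 and 2, 2.75 against narrow footprints of at least 1 library, and ran from -6.94 to 0.805 with 1 replicate left out, 0.805 being without replicate 4. CpG turned to -0.335 against footprints of 13 to 19 bp, and to -1.63 and -0.833 in the lowest and next of 4 classes of peak height.

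Among single families, RUNX turned to 0.0846 at 25 bp, 0.150 without replicate 2, 0.142 against 13 to 19 bp, 1.49 over the footprint and 5 bp, 0.204 less the share 100 bp to either side (-0.154 at 200 bp), and 0.421, 1.15, 0.541 and 0.0791 in the 4 height classes from low to high. Its range with 1 replicate left out was -0.350 to 0.150, and in windows without a CTCF core the RUNX difference was -0.771. KLF turned to -0.580 at 25 bp, -0.170 in at least 3 libraries, -0.580 in all 4, -0.0350 without replicate 1, -0.215 without replicate 2, -1.46 against 13 to 19 bp, -0.137 and -0.160 in windows of 21 and 51 bp, and -0.0283 less the share 100 bp to either side (0.289 at 200 bp). Its leave-one-out range was -0.215 to 0.194, and in windows without a CTCF core the KLF difference was 1.25. REST turned to -0.0579 in all 4 libraries, -0.00253 without replicate 1 and -0.000650 without replicate 3, with 0.0630 without replicate 4. ETS turned to 0.653 in all 4 libraries, 0.0557 without replicate 4, 0.450 against narrow footprints of at least 1 library, 2.00 over the footprint and 5 bp, 0.00109 within 1 kb of a start and 1.51 in windows without a CTCF core; its leave-one-out range was -1.11 to 0.0557. Over the footprint and 5 bp, the ETS form without CpG turned to 0.0296, GATA to 0.0896, TCF7/LEF1 to 0.404 and AP-1 to 0.131. In the lowest height class, SP turned to -3.32 and CREB/ATF to -0.0383. The cause was not tested.

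The CTCF difference ranged from 2.22 to 26.3 percentage points, GC from 2.16 to 9.20, distal CTCF with up to 2 mismatches from 62.2 to 74.95, tRNA genes from 0.2002 to 0.432 and the held-out width share from 46.8 to 76.6, with no change of sign. The held-out test was not run with members of at least 1, at least 3 or all 4 libraries or from replicates 1 and 2, and peak height, held-out width and gene counts were not run by place or height class. Replicate 4 had the fewest tags and 1579 members; its depth and its marker peaks cannot be told apart as sources of its differences.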
